A study of Mus musculus with 12 samples.

Results

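Transcripts of 7 matrix metalloproteinase (Mmp) genes and 3 genes for their tissue inhibitors (Timp) were followed in D2A1 mammary carcinoma cells recovered as dormant or as growing cells from mouse lungs. The 10 genes, Mmp2, Mmp3, Mmp9, Mmp10, Mmp13, Mmp14, Mmp19, Timp1, Timp2 and Timp3, are a chosen part of the 27 Mmp and Timp genes among 54146 genes in the table, picked with earlier results of these data known. The other genes of both families are described after them. All 10 chosen genes had at least 1 TPM (a transcript level corrected for gene length and library total) in at least 3 of the 12 libraries, as did 13002 genes, and these 13002 were tested.

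Matrix metalloproteinases are zinc enzymes that are secreted as inactive precursors or held at the cell surface, and that cleave collagens, laminins, fibronectin and each other's precursors. Tissue inhibitors of metalloproteinases bind the active site and block it. In carcinomas of the breast and in the lung, the balance between the enzymes and their inhibitors is known for its part in basement membrane crossing, matrix turnover and the release of growth factors.

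D2A1 is a mouse mammary carcinoma line. The cells carried a doxycycline-inducible histone H2B-GFP and were stained with CellVue Claret (CVC), a membrane dye that fades as cells divide, then injected into the tail vein of female mice aged 6 to 8 weeks. Lungs were taken 12 or 14 days later (both times are given by the study), and aliquots of 50 GFP-positive cells were sorted. Cells that retained CVC are labelled dormant and those that had lost it growing.

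The hosts were WT mice, which the study elsewhere calls Tgfbr2-floxed controls, and Tgfbr2 KO mice, which carried the floxed Tgfbr2 with Cre recombinase under the Lysozyme 2 promoter. That promoter is active in myeloid cells, so the injected carcinoma cells of all 4 groups had the same genotype. The groups, each of 3 libraries, are named by state and host as dormant WT, dormant KO, growing WT or growing KO. Of these 12 libraries, every WT library was in library batch 1 and every KO library in library batch 2, so host and batch cannot be told apart here in a comparison of hosts. The table also has 6 columns whose names read as WT libraries of batch 2, which match no labelled sample and were not used. By contrast, dormant and growing libraries of 1 host share a batch.

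The number of genes above 0 per library was lowest in dormant WT, at 11325 to 13242, and highest in dormant KO, at 14770 to 15315. It was 14352 to 14475 in growing WT and 13406 to 14063 in growing KO. Its part in values listed at 0 was not tested. Since TPM keeps no read depth, the reads behind a value are unknown. Tgfbr2 itself was at 0.14 to 11.09 TPM in dormant WT, 2.19 to 11.48 in dormant KO, 0.44 to 1.01 in growing WT and 1.27 to 1.58 in growing KO, which checks no label because the deletion was made in host cells. Of the markers of the carcinoma, Krt8 and Krt18 were at 52.08 TPM or more in all 12 libraries, while Epcam and Cdh1 were at most 5.34 and 1.88 TPM. Dormant KO libraries held 52.08, 106.27 and 79.87 TPM of Krt8, and every other library 152.91 TPM or more. Krt18 overlapped between the dormant groups. Spp1, described below with the matrix proteins, fell to 1236, 1509 and 1427 TPM in dormant KO from 28980 or more elsewhere. The share of carcinoma cells in each library was not tested. Krt19 was at 252.04 to 418.30 TPM in dormant KO and at most 14.16 in the other 9 libraries, and Krt7 at 29.60 to 61.46 and at most 2.18. The dormant KO libraries stood apart in markers of other lung cells. Summed over 8 alveolar type 2 genes, the level was 40072 to 42411 TPM in dormant KO, 48.95 to 141 in dormant WT, 53.43 to 97.31 in growing WT and 457 to 465 in growing KO. Sftpc, surfactant protein C, made up 91.9% of the mean sum in dormant KO and 91.4% in dormant WT, whereas Abca3 had a mean of 1.67 TPM in dormant KO and 5.37 in dormant WT. In these 50-cell libraries fewer cells of a type and less RNA per cell cannot be told apart, and the part of other cell types in the differences given here was not tested.

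**Figure D1:**
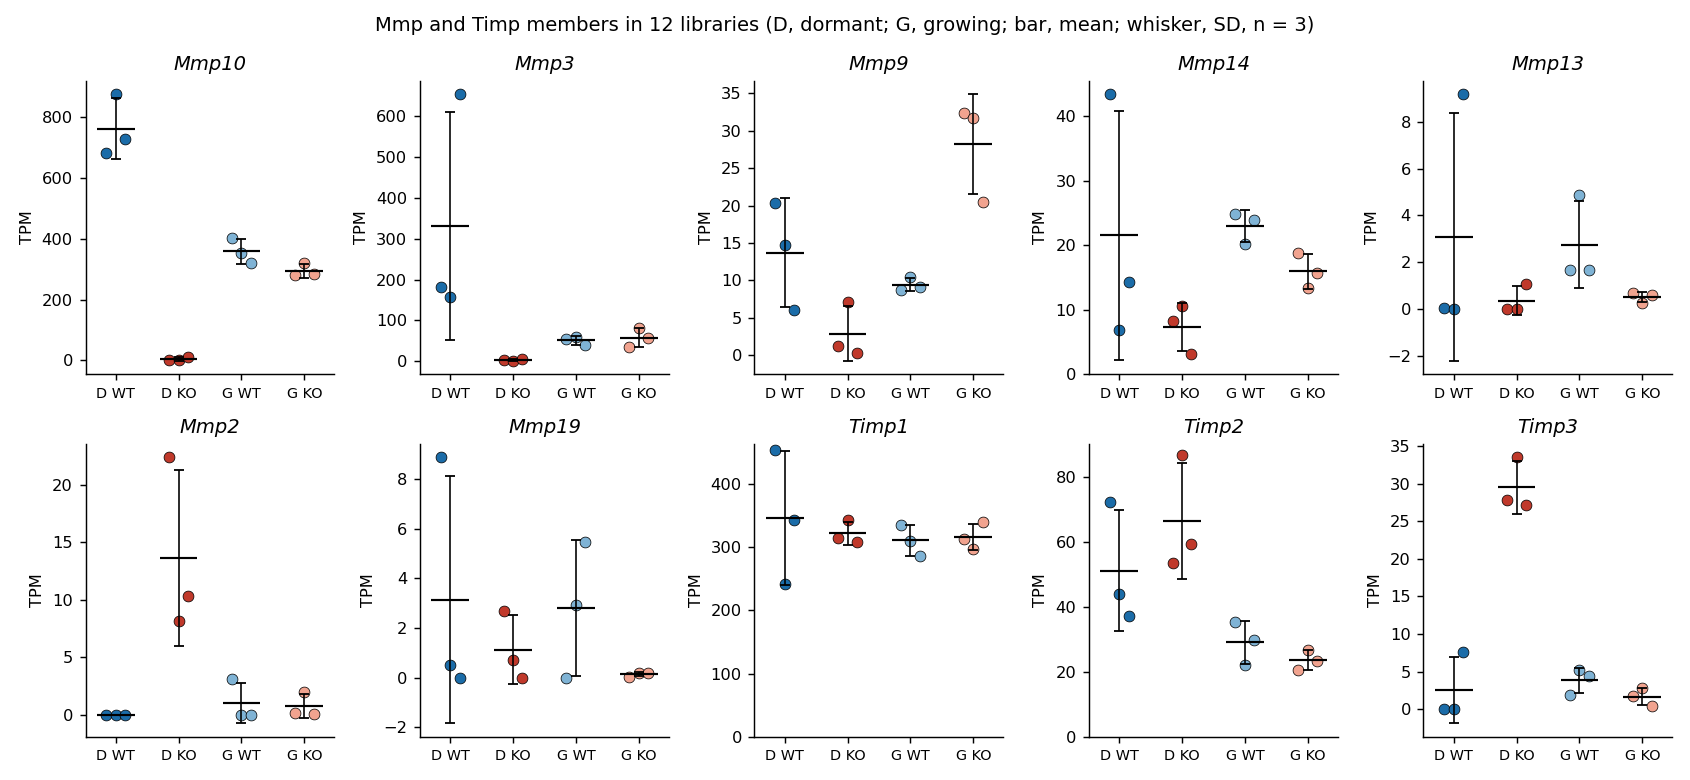
TPM of the 10 Mmp and Timp genes (linear y axes, each with its own scale) in dormant WT (D WT), dormant KO (D KO), growing WT (G WT) and growing KO (G KO). Points are libraries, the bar is the mean and the whisker the SD of 3 libraries; Mmp10 and Mmp3 lie near 0 in dormant KO, and Mmp2 and Timp3 are highest there.

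The genes that carry the largest differences, Mmp3 and Mmp10, lie side by side on mouse chromosome 9. In GENCODE M21 coordinates on build GRCm38, Mmp3 (ENSMUSG00000043613.8) spans 7445822 to 7455975 and Mmp10 (ENSMUSG00000047562.3) spans 7502352 to 7510240, both on the plus strand, with 46376 bases and no protein-coding gene between them. Mmp13 (ENSMUSG00000050578.10, 7272514 to 7283331, plus strand) lies 162490 bases before Mmp3, with Mmp12 and Mmp1b in the gap. The 250 bases before the RefSeq start of each are printed because all 3 hold the AP-1 letters TGACTCA, or TGAGTCA as the same site reads on the other strand, which are in capitals. AP-1 is the transcription factor formed by Fos and Jun proteins, and the stromelysin and collagenase promoters are textbook examples of its targets.
Mmp3: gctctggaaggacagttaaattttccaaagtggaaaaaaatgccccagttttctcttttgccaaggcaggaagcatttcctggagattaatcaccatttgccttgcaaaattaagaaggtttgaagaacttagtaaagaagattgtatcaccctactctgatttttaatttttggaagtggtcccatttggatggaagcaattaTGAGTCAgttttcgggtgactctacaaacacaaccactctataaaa
Mmp10: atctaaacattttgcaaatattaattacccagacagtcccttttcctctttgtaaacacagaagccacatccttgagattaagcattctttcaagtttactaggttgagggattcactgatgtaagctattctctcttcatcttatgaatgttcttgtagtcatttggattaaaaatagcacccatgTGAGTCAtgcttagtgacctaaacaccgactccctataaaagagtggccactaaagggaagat
Mmp13: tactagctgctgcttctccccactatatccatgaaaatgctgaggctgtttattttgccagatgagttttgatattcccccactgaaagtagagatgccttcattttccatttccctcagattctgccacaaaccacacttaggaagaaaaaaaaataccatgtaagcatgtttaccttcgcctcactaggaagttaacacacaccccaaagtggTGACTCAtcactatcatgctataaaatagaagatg

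These are RefSeq sequences of the plus strand on build GRCm38.p6, at chr9:7445572-7445821 for Mmp3, chr9:7502092-7502341 for Mmp10 and chr9:7272264-7272513 for Mmp13. The motif lay 46 to 40 bases before the start in Mmp3, 63 to 57 in Mmp10 and 35 to 29 in Mmp13. Promoters of 7 of the 10 genes were in the table used, and 3 held the motif on either strand. The same letters were in 1466 of 32851 windows of this length (4.46%), or at 1395 of 27025 genes (5.16%). A match is a description of letters, and Timp1, Timp2, Timp3 and Mmp14 had no match in their windows.

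The other genes are spread over the genome (GRCm38). Mmp2 (ENSMUSG00000031740.8) is on chromosome 8 at 92827291 to 92853420, Mmp9 (ENSMUSG00000017737.2) on chromosome 2 at 164940780 to 164955850, and Mmp14 (ENSMUSG00000000957.11) on chromosome 14 at 54431612 to 54445364, all on the plus strand. Mmp19 (ENSMUSG00000025355.7, chromosome 10, 128790910 to 128800824, plus strand) overlaps exons of Tmem198b and Gm47093 on the opposite strand. Timp3 (ENSMUSG00000020044.13, chromosome 10, 86300372 to 86349506, plus strand) overlaps exons of Syn3 on the opposite strand. Because use of strand was not stated, reads from these partners cannot be told apart. Timp1 (ENSMUSG00000001131.11, chromosome X, 20870166 to 20874735, plus strand) and Timp2 (ENSMUSG00000017466.9, chromosome 11, 118301069 to 118355740, minus strand) overlap other genes but not their exons. Of the 50-base stretches of transcript, 8.39% of those in Mmp3 also occur in another gene, mainly Mmp10, and 8.37% of those in Mmp10 occur in Mmp3, so a small share of reads could have been divided between the pair. The share was 24.7% for Mmp19, with Tmem198b and Gm47093, and 21.4% for Timp3, with 569 other genes, so the levels of these genes are uncertain to that extent.

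In growing cells and in dormant cells of WT hosts, Mmp10 was the most abundant of the 7 Mmp genes in TPM, followed by Mmp3. In dormant cells of KO hosts both were nearly absent, Mmp9 was also lower, and Mmp2 and Timp3 were higher than in any other group. Of the 10 genes, 5 were called by limma between dormant KO and dormant WT, 2 higher and 3 lower. A call needed a Benjamini-Hochberg adjusted p of at most 0.05 over all 13002 genes and a difference of at least 1 on the log2(TPM + 1) scale, on which every difference here is given. In that comparison 22.3% of all genes tested were called, 12.9% higher and 9.39% lower. The groups of libraries did not overlap for 4 of the 10, against 31.5% of all genes. The median difference was -0.60 for the 10 genes and 0.17 for all genes, and the latter was 0.50 under median-ratio scaling and -0.14 under quantile normalization. The share of all calls that were higher went from 57.9% to 74.0% and 50.1% under those scalings. Of the 6 epithelial genes listed as carcinoma markers, Epcam, Krt7 and Krt19 were called higher and Krt8 lower in this comparison. In growing WT libraries Krt7 was at 0, Krt19 at 0, 7.02 and 0 TPM and Epcam at 0, 0 and 0.16 TPM. Those genes therefore do not mark the growing carcinoma cells here.

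Between growing KO and growing WT, none of the 10 genes was called by limma, and none had an unadjusted p under 0.05. Of all genes 0.977% were called, 0.715% higher and 0.261% lower. The libraries did not overlap for 4 of the 10, against 23.9% of all genes. The median difference was -0.28 for the 10 genes and 0.02 for all genes.

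Between dormant WT and growing WT, 1 of the 10 genes was called, higher in dormant WT, against 7.51% of all genes, 1.85% higher and 5.67% lower. The share of all calls that were higher was 24.6% as deposited and 50.6% under quantile normalization. The libraries did not overlap for 3 of the 10 and for 26.6% of all genes, and the median difference was -0.07 against -0.35.

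Between dormant KO and growing KO, 6 of the 10 were called, 3 in each direction, against 17.8% of all genes, 8.31% higher and 9.48% lower. Libraries did not overlap for 7 of the 10 and for 44.7% of all genes. The median difference was -0.10 against -0.32, and the share of calls that were higher was 46.7% as deposited, 69.2% under median-ratio scaling and 56.9% under quantile normalization.

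The interaction, which is the dormant minus growing difference in KO hosts less that in WT hosts, was called for 5 of the 10 (2 higher, 3 lower), against 10.1% of all genes, 6.18% higher and 3.91% lower. Its median was 0.17 for the 10 genes and 0.16 for all genes, and 61.2% of its calls were higher as deposited and 79.1% under median-ratio scaling. The comparisons share libraries, the dormant KO libraries entering 3 of the 5, so calls of a gene in several of them are not separate evidence.

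**Figure D2:**
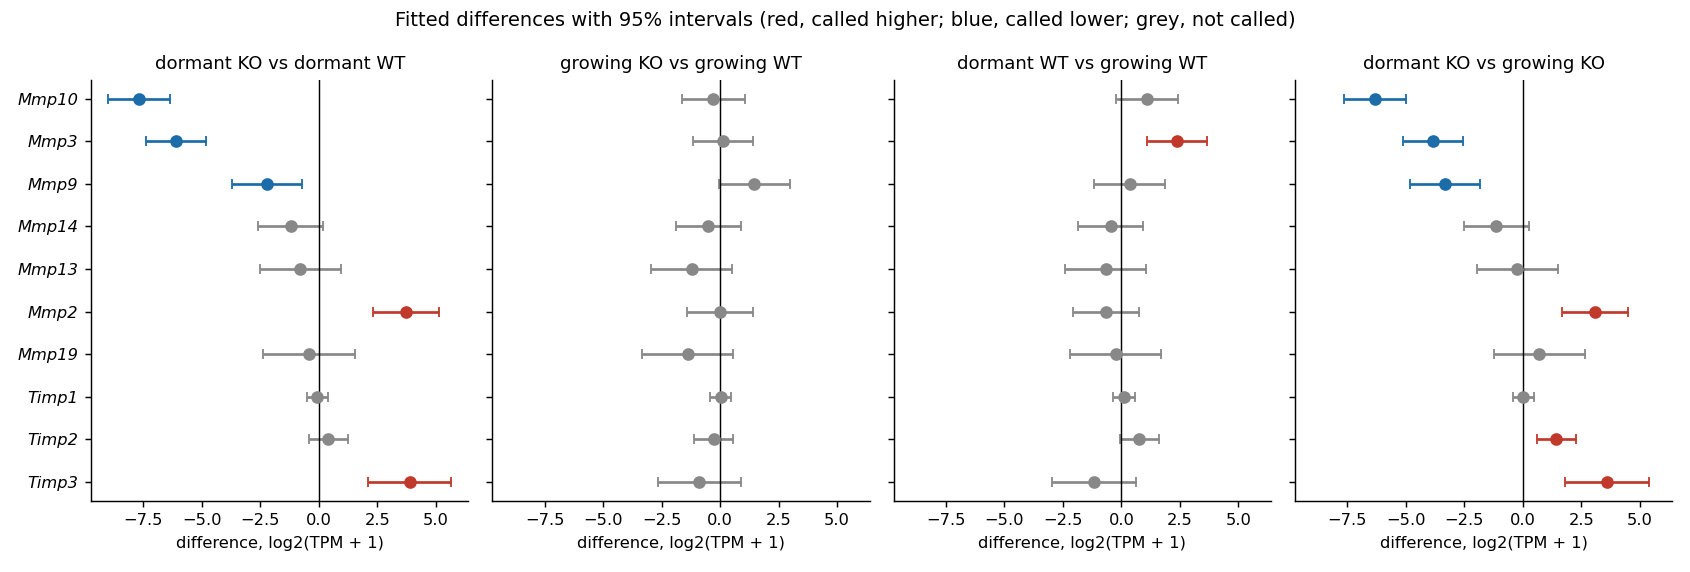
Fitted differences of the 10 genes on the log2(TPM + 1) scale (x axis) with 95% intervals from limma, in 4 comparisons of groups of 3 libraries. Red marks genes called higher, blue genes called lower and grey genes not called; the called genes are 5 for dormant KO against dormant WT, none for growing KO against growing WT, 1 for dormant WT against growing WT and 6 for dormant KO against growing KO.

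The stromelysins are considered first. Mmp10 codes for stromelysin-2, which cleaves proteoglycans, laminin and fibronectin and activates other proenzymes. The 3 dormant WT libraries held 682.61, 873.49 and 727.81 TPM, and the dormant KO libraries 2.47, 0.22 and 11.13 TPM. Every dormant WT library lay above every dormant KO library. Growing cells were between these, with 401.90, 352.77 and 320.15 TPM in growing WT and 279.11, 318.87 and 282.93 TPM in growing KO. By mean TPM, Mmp10 was gene number 204 in dormant WT, 534 in growing WT, 636 in growing KO and 7445 in dormant KO.

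The difference of Mmp10 between dormant KO and dormant WT was -7.67 ± 0.61 (SE, adjusted p = 5.67e-06 by limma), with a mean TPM 165-fold lower in dormant KO and 566-fold lower without dormant KO replicate 3. Against growing KO, within 1 library batch, it was -6.31 ± 0.61 (adjusted p = 3.95e-05) and the mean was 63.7-fold lower, or 218-fold without that library. Both calls held in each of the 15 alternative fits. Mmp10 was thus lowest in dormant KO by a margin beyond the spread of the libraries. In WT hosts the direction was the other way, as all dormant WT libraries lay above all growing WT libraries (mean 2.12-fold higher). That difference of 1.08 (95% interval -0.24 to 2.41, adjusted p = 0.305) was not called, except in a fit of only those 2 groups (adjusted p = 0.0175). Growing KO libraries all lay just below growing WT libraries, by -0.28 (interval -1.61 to 1.05, adjusted p = 1).

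Mmp3 codes for stromelysin-1, with a similar set of substrates. Its level was 182.99, 158.07 and 653.60 TPM in dormant WT and 3.13, 1.35 and 5.37 TPM in dormant KO. The third dormant WT library was the highest of all, and every dormant KO library lay below every other library. Growing WT libraries had 55.44, 59.17 and 39.64 TPM and growing KO libraries 35.41, 81.69 and 56.55 TPM, which overlap. Mmp3 was gene number 498 by mean TPM in dormant WT, 2200 in growing WT, 2138 in growing KO and 8595 in dormant KO.

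Between dormant KO and dormant WT, Mmp3 differed by -6.08 ± 0.58 (SE, adjusted p = 2.51e-05 by limma), and its mean was 101-fold lower in dormant KO, or 51.9-fold without dormant WT replicate 3. Against growing KO it was 17.6-fold lower, a difference of -3.82 ± 0.58 (adjusted p = 0.000809). Both calls held in each of 15 alternative fits. Mmp3 was also the gene called higher in dormant WT than in growing WT, by 2.37 ± 0.58 (adjusted p = 0.0289), with a mean 6.45-fold higher, or 3.32-fold without dormant WT replicate 3. This call was lost without any 1 of the growing WT libraries, in turn 0.0843, 0.0784 and 0.111 for replicates 1, 2 and 3. It was lost too with no filter, in a fit of the compared groups alone and with array weights (adjusted p of 0.0628, 0.0880 and 0.0832). Growing KO and growing WT differed by 0.11 (interval -1.17 to 1.39, adjusted p = 1).

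**Figure D3:**
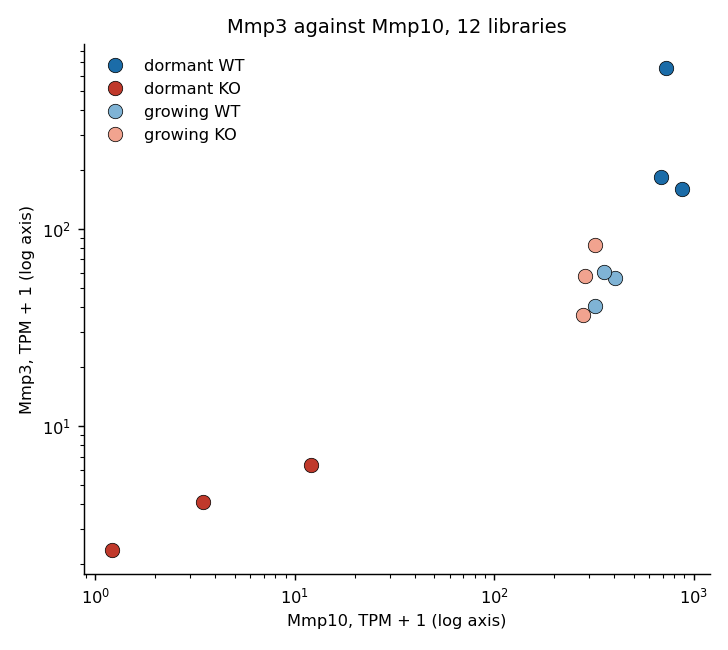
Mmp10 (x axis) against Mmp3 (y axis) in the 12 libraries, as TPM + 1 on log axes, each point a library coloured by group. The 3 dormant KO libraries sit at the lower left, at most 11.13 TPM for Mmp10 and 5.37 TPM for Mmp3, the growing libraries form 1 cloud and the dormant WT libraries lie at the upper right.

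For both stromelysins the state difference was not the same in KO and WT hosts, which also differ in library batch. The interaction was -7.39 ± 0.86 (SE, adjusted p = 0.000399 by limma) for Mmp10 and -6.19 ± 0.83 (adjusted p = 0.000977) for Mmp3, and both calls held in each of 20 alternative fits. Within the dormant KO group Mmp10 and Mmp3 took the same order of libraries, with replicate 2 lowest and replicate 3 highest. Over the 12 libraries, which differ in group and batch, Pearson's r of the log2 levels of Mmp3 and Mmp10 was 0.929, given as a description.

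The gelatinases moved in opposite directions. Mmp9 codes for gelatinase B, which degrades type IV collagen and is made by carcinoma cells, neutrophils and macrophages. Its level was 20.34, 14.78 and 5.97 TPM in dormant WT and 1.26, 7.05 and 0.31 TPM in dormant KO, and the groups overlap through the third dormant WT and second dormant KO library. Growing WT libraries had 8.73, 10.40 and 9.13 TPM, and growing KO libraries had the highest levels, 32.41, 31.69 and 20.51 TPM.

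The difference of Mmp9 between dormant KO and dormant WT was -2.21 ± 0.69 (SE, adjusted p = 0.0364 by limma), with a mean 4.77-fold lower, or 17.4-fold without dormant KO replicate 2. The call was lost in 9 of 15 alternative fits, among them those without dormant WT replicate 1 (adjusted p = 0.0823) or 2 (0.0629) and without dormant KO replicate 1 (0.107) or 3 (0.136), and its adjusted p ran from 0.00599 to 0.212. It was lower in dormant KO than in growing KO, by -3.32 ± 0.69 (adjusted p = 0.00530), with no overlap and in each alternative fit. All growing KO libraries exceeded all growing WT libraries (mean 2.99-fold higher), a difference of 1.46 (interval -0.05 to 2.97, adjusted p = 0.702) that was called only in a fit of those 2 groups (adjusted p = 0.0373). Dormant WT and growing WT differed by 0.35 (interval -1.15 to 1.86, adjusted p = 0.812).

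Mmp2 codes for gelatinase A, a product mainly of fibroblasts and other mesenchymal cells that is activated at the cell surface by Mmp14 together with Timp2. Dormant WT libraries were listed at 0, 0.02 and 0 TPM, whereas dormant KO libraries had 22.43, 8.17 and 10.32 TPM. Growing WT libraries had 3.08, 0 and 0 TPM and growing KO libraries 0.19, 2.02 and 0.10 TPM. Only the dormant KO group had Mmp2 above 3.08 TPM, and there in all 3 libraries. Mmp2 thus passed the filter only with the dormant KO libraries counted.

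The difference of Mmp2 between dormant KO and dormant WT was 3.74 ± 0.65 (SE, adjusted p = 0.00132 by limma), and that between dormant KO and growing KO was 3.09 ± 0.65 (adjusted p = 0.00553). The first was lost with array weights (adjusted p = 0.0815). The state difference was not the same in KO and WT hosts, which also differ in library batch. Its interaction was 3.76 ± 0.91 (adjusted p = 0.0225). Over 20 alternative fits the adjusted p of the interaction ran from 0.0111 to 0.141 and exceeded 0.05 in 6. Between hosts in growing cells, Mmp2 differed by -0.02 (interval -1.43 to 1.40, adjusted p = 1).

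Beside Mmp2, the 10 fibroblast markers summed to 1855 to 2090 TPM in dormant KO, 109 to 210 in dormant WT, 67.18 to 106 in growing WT and 345 to 410 in growing KO. Dcn and Inmt made up most of the dormant KO sum, with means of 1172 and 561 TPM. Of the 10 markers 6 were called higher than in dormant WT and none lower, against 12.9% and 9.39% of all genes, and Lum, Pdgfra and Col13a1 had lower means in dormant KO (5.12, 1.55 and 0.18 TPM) than in dormant WT (40.1, 8.16 and 5.89 TPM), with overlapping libraries. None of these markers was at 0 in all dormant KO libraries, and 3 were in all dormant WT libraries. The 7 mesothelial markers summed to 587 to 890 TPM in dormant KO and to 0 to 55.61 in dormant WT, where 5 were at 0 in all libraries. Beside Mmp9, the 8 neutrophil markers summed to 4050 to 4370 TPM in dormant KO, 326 to 915 in dormant WT, 53.33 to 77.96 in growing WT and 96.59 to 109 in growing KO. S100a8 and S100a9 made up 74.2% and 25.2% of the mean sum in dormant KO. Camp and Ltf were at 0 in all dormant libraries, and Cxcr2 had a mean of 1.34 TPM in dormant KO and 9.65 in dormant WT. The 10 macrophage markers summed to 523 to 735, 706 to 961, 12.85 to 25.30 and 75.42 to 108 TPM in the same order. The part of these cells in the results was not tested.

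**Figure D4:**
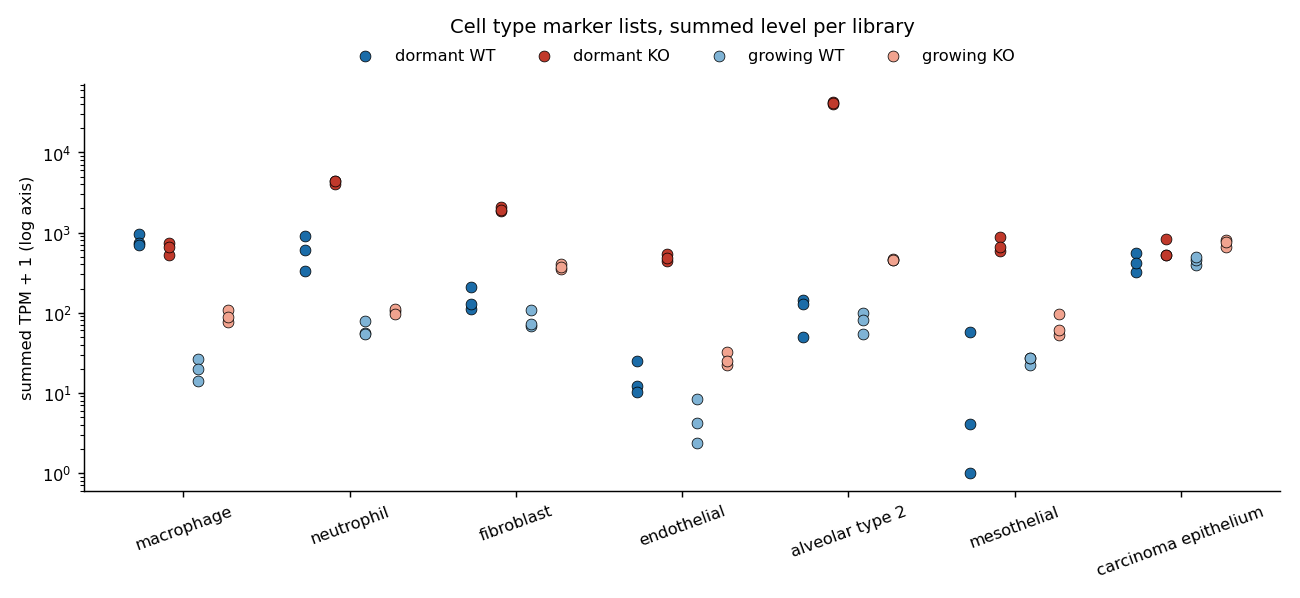
Summed TPM + 1 (y axis, log scale) of 7 lists of cell type markers (x axis), each point a library coloured by group. Dormant KO libraries are the highest for neutrophil, fibroblast, endothelial, alveolar type 2 and mesothelial lists, while dormant WT and dormant KO lie together for macrophage markers, at 523 to 961 TPM.

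Of the remaining enzymes, Mmp14, Mmp13 and Mmp19, none was called by limma in any of the 5 tests, and none had an unadjusted p under 0.05. Mmp14 codes for the membrane-anchored MT1-MMP, which cleaves fibrillar collagen around the cell. Dormant WT libraries had 43.41, 6.86 and 14.26 TPM, dormant KO libraries 8.29, 10.50 and 3.19, growing WT libraries 24.80, 20.16 and 23.91, and growing KO libraries 18.76, 13.37 and 15.74. The dormant WT libraries were the most scattered and spanned nearly all other values. Dormant KO differed from dormant WT by -1.19 (interval -2.58 to 0.20, adjusted p = 0.210 by limma). With 1 library left out the difference ran from -1.77 (adjusted p = 0.0388, without dormant WT replicate 2) to -0.52, with adjusted p up to 0.509. All dormant KO libraries lay below all growing KO libraries (-1.14, interval -2.53 to 0.26, adjusted p = 0.254).

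Mmp13 codes for collagenase-3, the main interstitial collagenase of the mouse. Its TPM was 0.05, 0 and 9.17 (dormant WT), 0, 0.02 and 1.06 (dormant KO), 1.69, 4.89 and 1.69 (growing WT) and 0.69, 0.27 and 0.60 (growing KO). A single library, dormant WT replicate 3, held the highest value, as it did for Mmp3. Without it the difference between dormant WT and growing WT went from -0.67 (adjusted p = 0.662 by limma) to -1.77 (adjusted p = 0.0382), and that between dormant KO and dormant WT from -0.78 to 0.32. Growing KO libraries all lay below growing WT libraries (-1.21, interval -2.94 to 0.51, adjusted p = 0.976).

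Mmp19, an enzyme that acts on basement membrane proteins, had TPM values of 8.89, 0.52 and 0 (dormant WT), 2.68, 0.70 and 0 (dormant KO), 0, 2.92 and 5.47 (growing WT) and 0.03, 0.17 and 0.19 (growing KO). Each group but growing KO mixed libraries near 0 with libraries above 2 TPM. Growing KO differed from growing WT by -1.38 (interval -3.33 to 0.57, adjusted p = 0.972 by limma).

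The inhibitors had patterns of their own. Timp1, a secreted inhibitor of most soluble metalloproteinases, was abundant in all libraries. Its TPM was 452.72, 242.18 and 343.06 (dormant WT), 315.01, 342.56 and 308.32 (dormant KO), 335.58, 309.82 and 286.50 (growing WT) and 312.00, 296.94 and 338.81 (growing KO). All 4 groups overlap, and the mean ran from 311 to 346 TPM. Dormant KO differed from dormant WT by -0.06 (interval -0.52 to 0.40, adjusted p = 0.884 by limma) and from growing KO by 0.03 (-0.43 to 0.49, adjusted p = 0.950). Median-ratio scaling gave 0.46 (adjusted p = 0.0937) for the first and 0.62 (adjusted p = 0.0392) for the second, which is under the size that a call needs.

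Timp2, which inhibits soluble and membrane-bound enzymes and also docks the Mmp2 precursor to Mmp14, reached 72.38, 44.04 and 37.16 TPM in dormant WT libraries and 53.48, 87.09 and 59.55 TPM in dormant KO libraries. Growing WT libraries had 35.42, 22.01 and 29.90 TPM and growing KO libraries 20.65, 26.79 and 23.45 TPM. In each host all dormant libraries lay above all growing libraries. The difference was called in KO hosts, 1.43 ± 0.38 (SE, adjusted p = 0.0199 by limma, mean 2.82-fold higher), and not in WT hosts, 0.76 ± 0.38 (interval -0.07 to 1.59, adjusted p = 0.248). The call in KO hosts was lost without dormant KO replicate 2 (adjusted p = 0.0679), growing KO replicate 1 (0.0708) or growing KO replicate 3 (0.0576). The interaction of 0.67 (interval -0.50 to 1.85, adjusted p = 0.527) did not show that the hosts differ in this respect. Dormant KO and dormant WT differed by 0.40 (interval -0.43 to 1.23, adjusted p = 0.498).

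Timp3, which binds to the matrix and also inhibits ADAM and ADAMTS proteases, was listed at 0, 0 and 7.69 TPM in dormant WT libraries, and dormant KO libraries had 27.80, 33.53 and 27.15 TPM. Growing WT libraries had 1.96, 5.20 and 4.39 TPM and growing KO libraries 1.72, 2.83 and 0.51 TPM. Every dormant KO library was thus above 27 TPM and every other library at or below 7.69 TPM. Timp3 in dormant KO exceeded that in dormant WT by 3.88 ± 0.81 (SE, adjusted p = 0.00448 by limma) and that in growing KO by 3.60 ± 0.81 (adjusted p = 0.00860). The mean was 17.5-fold higher than in growing KO and 26.5-fold without growing KO replicate 2. No fold is given against dormant WT, whose mean rests on replicate 3. Dormant WT differed from growing WT by -1.17 (interval -2.95 to 0.61, adjusted p = 0.416), which became -2.21 (adjusted p = 0.0323) without dormant WT replicate 3. The call of dormant KO against dormant WT was lost in a fit of only those groups (adjusted p = 0.0607). That against growing KO was lost with a pseudocount of 0.1 (0.0757). The interaction was 4.77 ± 1.15 (adjusted p = 0.0215). It was lost in 4 of 20 alternative fits, with a pseudocount of 0.1 (adjusted p = 0.0507) or without growing WT replicate 2 (0.0616), growing WT replicate 3 (0.0594) or growing KO replicate 3 (0.0585).

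Beside Timp3, the 8 endothelial markers, of a cell type that makes much Timp3, summed to 440 to 545 TPM in dormant KO, 9.14 to 23.74 in dormant WT, 1.34 to 7.35 in growing WT and 21.47 to 31.07 in growing KO. None was at 0 in all dormant KO libraries, and 1 was at 0 in all dormant WT libraries. Of the 8, 6 were called in the comparison with dormant WT, all higher in dormant KO, against 12.9% of all genes. Their part in the result was not tested.

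Summed over the 7 Mmp genes, the level was 938, 1054 and 1411 TPM in dormant WT, 496, 450 and 399.99 in growing WT, 367, 448 and 377 in growing KO and 40.26, 28.01 and 31.38 in dormant KO. The 3 Timp genes summed to 400 ± 120 (SD, n = 3) TPM in dormant WT, 418 ± 39.0 in dormant KO, 344 ± 26.7 in growing WT and 341 ± 19.1 in growing KO. The ratio of these inhibitor to these enzyme transcripts was below 1 in 9 libraries and above it in the 3 of dormant KO. It was 0.560, 0.272 and 0.275 in dormant WT, 0.752, 0.748 and 0.802 in growing WT, 0.912, 0.729 and 0.963 in growing KO and 9.84, 16.5 and 12.6 in dormant KO. The size of the ratio in dormant KO depends on which enzymes are summed. With all 23 Mmp and 4 Timp genes of the table, among them Mmp12 and Mmp23, it was 1.87 to 2.07 in dormant KO and 0.271 to 0.923 in the other 9 libraries. Mmp3 and Mmp10 made up 85.8% to 97.9% of the sum of 7 Mmp genes in those 9 libraries and 13.9%, 5.61% and 52.6% in dormant KO. Timp1 made up 74.0% to 93.4% of the sum of 3 Timp genes in all 12. These sums describe transcript levels only and were not tested.

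**Figure D5:**
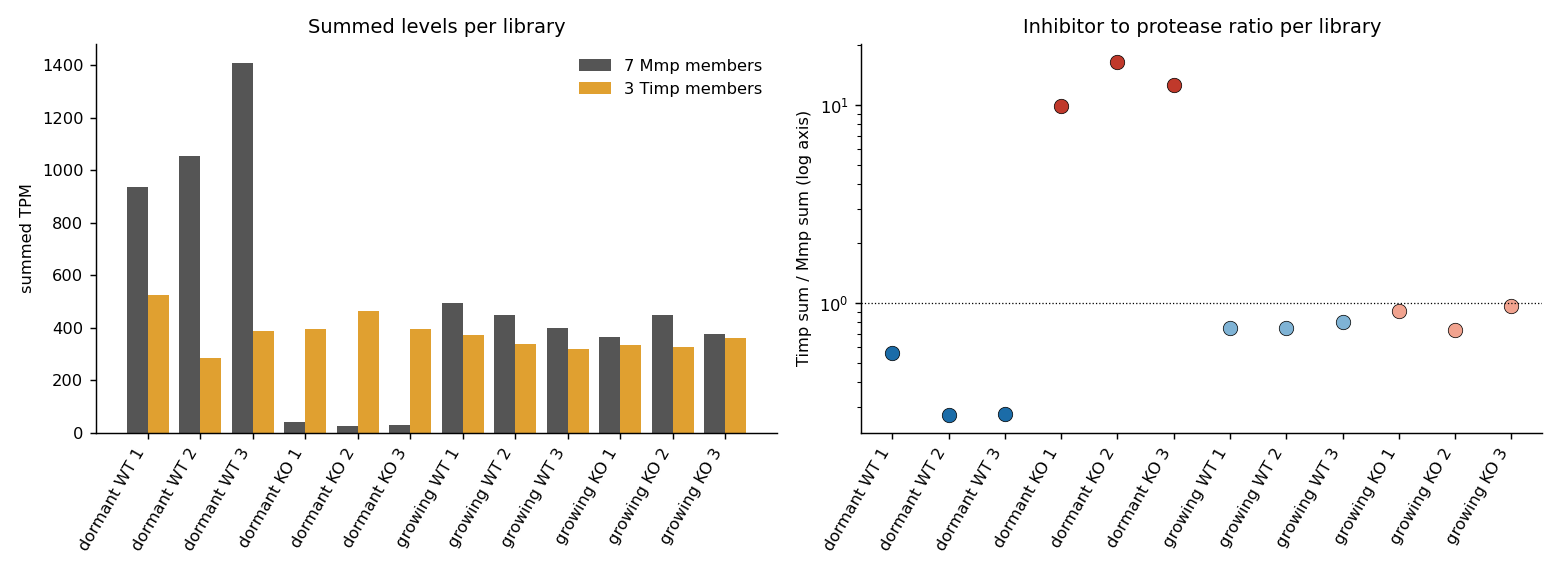
Left, summed TPM of the 7 Mmp genes (grey bars) and the 3 Timp genes (yellow bars) in each of the 12 libraries (x axis). Right, the ratio of the sum of those 3 Timp genes to that of those 7 Mmp genes per library on a log axis, with a dotted line at 1; the 3 dormant KO libraries lie at 9.84 to 16.5 and the other 9 at 0.272 to 0.963.

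Other genes of matrix proteolysis were read from lists of 73 genes, of which 47 were tested. The lists were chosen with earlier results of these data known, so a share above that of all genes is a description. Between dormant KO and dormant WT, 16 were called higher and 7 lower, 48.9% of those tested against 22.3% of all genes. Between dormant KO and growing KO 13 and 7 were called (42.6% against 17.8%), between dormant WT and growing WT 2 and 2 (8.51% against 7.51%), and between growing KO and growing WT 2 and none (4.26% against 0.977%). The interaction was called for 9 higher and 6 lower (31.9% against 10.1%).

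Of 16 other Mmp genes 5 were tested, and 3 were called for dormant KO against dormant WT, all higher, against 12.9% of all genes called higher. Mmp8 and Mmp23 passed the filter only with the dormant KO libraries counted, so their direction was largely fixed by it and the count is no support. Mmp12, the macrophage metalloelastase, lies between Mmp13 and Mmp3. Dormant KO libraries had 111.61, 189.73 and 102.00 TPM against 0, 2.61 and 0.04 TPM for dormant WT, a difference of 6.39 ± 0.92 (SE, adjusted p = 0.000389 by limma). It was also higher than in growing KO, with 11.77, 0 and 5.95 TPM there (4.87, adjusted p = 0.00295). Neighbours on chromosome 9 thus differed in direction, Mmp12 higher and Mmp3 and Mmp10 lower in dormant KO. Of 9 macrophage markers tested between the dormant groups, none was called by limma and none had an unadjusted p under 0.05, while between dormant KO and growing KO 5 of the 9 were called, all higher, against 8.31% of all genes. The part of macrophages in the level of Mmp12 was not tested.

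Mmp23, a membrane-anchored member without the usual cysteine switch, had 38.01, 25.41 and 49.30 TPM in the dormant KO group, while each library of WT hosts was listed at 0 (difference from dormant WT 5.22, adjusted p = 0.000180 by limma). Growing KO libraries had 7.24, 0.05 and 2.88 TPM, above those of growing WT but not called (1.69, adjusted p = 0.521). Mmp8, the neutrophil collagenase, reached 2.62, 5.15 and 5.02 TPM in dormant KO libraries, and the other 9 libraries were listed at 0 (2.36, adjusted p = 0.000149). It is outside the naming rule, was named after its values were seen, and is also 1 of the neutrophil markers, all 5 tested of which were higher in dormant KO, against 12.9% of all genes. Of these, Mmp8, Csf3r and Ngp passed the filter only with the dormant KO libraries counted. Mmp11, stromelysin-3, was lower in dormant WT than in growing WT, where it had 3.31, 9.39 and 4.86 TPM against a listed 0 in each dormant WT library (-2.68, adjusted p = 0.0294). Of 4 other inhibitors only Reck, which codes for a membrane-anchored inhibitor of Mmp9 and Mmp14, was tested. Dormant KO libraries had 3.37, 1.02 and 1.86 TPM of it, and those of dormant WT were listed at 0 (1.55, adjusted p = 0.00988). Reck was at most 0.81 TPM in the other 9 libraries, so it passed the filter only through dormant KO.

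Among 7 tested genes of plasminogen activation and precursor activation, Serpine2 and Bsg were called for dormant KO against dormant WT, both higher, a share of 28.6% against 22.3% of all genes. Serpine2, an inhibitor of plasminogen activators, reached 6.80, 5.29 and 15.17 TPM in dormant KO libraries and was listed at 0 in those of dormant WT (3.21, adjusted p = 0.000903 by limma). It passed the filter only with the dormant KO libraries counted. Bsg, or CD147, known as an inducer of metalloproteinases, was at 352.77, 551.29 and 315.72 TPM against 150.51, 235.36 and 190.43 TPM (1.06, adjusted p = 0.00676). Plat, tissue plasminogen activator, was lower in dormant KO, 11.77, 1.53 and 16.50 TPM, than in growing KO, 44.44, 66.58 and 43.20 TPM (-2.64, adjusted p = 0.0494). No test was passed by Plaur, the urokinase receptor, which had 111.60 to 497.33 TPM in all 12 libraries.

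Of 14 tested ADAM and ADAMTS genes, whose products shed surface proteins or cut proteoglycans, 4 were higher and 1 lower in dormant KO than in dormant WT, or 35.7% against 22.3% of all genes. The 4 higher genes, Adam33, Adamts2, Adamts5 and Adamts9, passed the filter only with the dormant KO libraries counted. Their direction was largely fixed by it, so the share is no support. Adamts5 and Adamts4 code for the main aggrecanases. Adamts5 was at 3.72, 2.49 and 2.63 TPM against 0.03, 0 and 0 TPM (1.95, adjusted p = 0.000341 by limma), and Adam33 differed by 1.61 (adjusted p = 0.0216). Adamts4 went the other way, with 0, 0.12 and 0.14 TPM in the dormant KO libraries against 5.70, 5.95 and 11.36 TPM (-2.94, adjusted p = 0.00109). Adamts9, a further proteoglycan-cutting enzyme, had 2.57, 1.43 and 2.68 TPM in dormant KO libraries and 0.38, 0.27 and 0.47 TPM in those of growing KO (1.21, adjusted p = 0.0283). Adam10, the general surface sheddase, was higher in dormant WT than in growing WT, 64.48, 65.61 and 32.82 TPM against 11.37, 18.61 and 14.33 TPM (1.77, adjusted p = 0.0228).

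Matrix proteins that these enzymes cleave were split. Of 13 tested, 6 were higher and 4 lower in dormant KO than in dormant WT, or 76.9% against 22.3% of all genes. Fn1, fibronectin, a substrate of Mmp3 and Mmp10, fell from 296.55, 367.55 and 304.14 TPM in dormant WT to 22.05, 24.45 and 22.66 TPM in dormant KO (-3.75 ± 0.26, SE, adjusted p = 2.33e-06 by limma). It was higher in dormant WT than in growing WT, at 62.87, 73.38 and 78.44 TPM (2.16, adjusted p = 0.000562). Spp1, osteopontin, cleaved by Mmp3, had 1236, 1509 and 1427 TPM in dormant KO libraries and 28980 or more in the other 9 (-4.66 against dormant WT, adjusted p = 5.2e-11). Among those higher in dormant KO were Dcn and Col3a1, both also fibroblast markers. Dcn, decorin, was at 1098, 1324 and 1094 TPM against 4.39, 0 and 0 TPM in dormant WT (9.38, adjusted p = 1.39e-06), and Col3a1 at 139.60, 196.08 and 154.94 TPM against 0 in all 3 (7.35, adjusted p = 2.07e-06). In the comparison with growing KO, Eln, elastin, had 19.14, 23.96 and 14.59 TPM in dormant KO libraries and 0, 1.45 and 1.72 TPM in those of growing KO (3.40, adjusted p = 0.000356 by limma). Bgn, the proteoglycan biglycan, had 99.33, 189.42 and 123.14 TPM against 16.45, 9.27 and 23.81 TPM (3.02, adjusted p = 0.00498), and its interaction was 4.72 (adjusted p = 0.00572). Lamb1, a laminin chain of basement membranes, was lower, with 3.25, 5.09 and 3.23 TPM against 18.44, 16.61 and 19.54 TPM (-2.002, adjusted p = 0.00718). Dcn and Col3a1 were also the genes of the lists called between growing KO and growing WT, by 4.21 for Dcn (adjusted p = 0.00538) and 4.01 for Col3a1 (0.00225).

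Of 7 AP-1 genes, whose letters are in the promoters printed above, Fosl1 and Junb were lower in dormant KO than in dormant WT, or 28.6% against 22.3% of all genes. Fosl1, which codes for Fra-1, had TPM values of 14.26, 15.51 and 4.43 (dormant KO), 122.84, 62.82 and 84.84 (dormant WT), 153.58, 186.67 and 172.69 (growing WT) and 133.70, 128.72 and 132.14 (growing KO). Every dormant KO library lay below every other library. The difference was -2.98 ± 0.43 (SE, adjusted p = 0.000370 by limma) from dormant WT and -3.58 ± 0.43 (adjusted p = 0.000157) from growing KO.

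Junb had 46.44, 93.61 and 60.51 TPM in dormant KO libraries and 179.49 TPM or more in the others, a difference of -2.10 ± 0.35 (SE, adjusted p = 0.00104 by limma) from dormant WT and -2.41 ± 0.35 (adjusted p = 0.000560) from growing KO. Fosb was higher in dormant KO, 41.07, 50.12 and 53.06 TPM, than in growing KO, 10.98, 11.22 and 12.84 TPM (1.95, adjusted p = 0.00266). The other 4, Fos, Fosl2, Jun and Jund, were called in no comparison, although Fos in dormant KO against dormant WT had an unadjusted p of 0.0474 (-0.45, adjusted p = 0.136 by limma). Whether these factors act on the Mmp genes was not tested.

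The genes whose log2 levels over the 12 libraries were most like a member's are given as a description, since libraries of a group share state, host and batch. For Mmp10 these were Krt76 (Pearson's r 0.992), Akr1c18 (0.980) and Cd320 (0.979), and for Mmp3 RP24-159O13.1 (0.976), Pi4k2b (0.971) and Slc35a3 (0.968). For Mmp2 they were Edn1 (0.980), Smagp (0.977) and Trbc2 (0.969), and for Timp3 Amotl2 (0.945), Smim1 (0.933) and Rbm28 (0.926). Mmp9 was most like Tuba1c (0.939), Mmp14 like Cd44 (0.946), Mmp13 like Dlx5 (0.934), Mmp19 like Nckipsd (0.945), Timp1 like Ptger4 (0.918) and Timp2 like Sptbn1 (0.930). Apart from Mmp3 with Mmp10, the closest pair of the 10 genes was Mmp2 with Timp3 (0.771).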

How the data were processed

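RNA was sequenced from 12 libraries of 50 sorted cells, 4 groups of 3, grouped by the sample titles. The study describes biological triplicates, and the p-values measure the spread between these libraries. The authors used Cutadapt to trim, STAR 2.5.2b to align to mm10, and estimated levels with RSEM on a GENCODE annotation; submitters' notes give cutadapt 1.18 and RSEM 1.3.3. The methods name a Smart-seq protocol and the labels a TruSeq mRNA kit. The deposited values are TPM, so read depth and counting error are unknown, and RSEM divides reads among similar or overlapping genes by estimate. A further 30 columns, 6 of them with names that share the prefixes of the columns used and read as WT of batch 2, could not be mapped to labelled samples and were not used.

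TPM was used as deposited and transformed to log2(TPM + 1), which understates changes of low genes. Genes with at least 1 TPM in at least 3 libraries were fitted with limma 3.58.1 (R 4.3.3, eBayes with trend, 8 residual degrees of freedom), with 1 mean per group over all 12 libraries. A gene high in only 1 group passes this filter through that group, so counts of genes higher in dormant KO are partly fixed by it. Tests were two-sided, with Benjamini-Hochberg adjustment over 13002 genes. The authors' DESeq2 test needs counts and was not applied, but its thresholds were kept (adjusted p at most 0.05, log2 difference at least 1). The script was tested on simulated data. Where a group is listed at 0, no fold is given.

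The genes followed, the pathway lists and the marker lists were chosen with earlier results of these data known. All 10 members are named. From the 6 pathway lists, up to 2 higher and 2 lower called genes per list and comparison with the largest differences were named, if the groups did not overlap. Retnlg, a neutrophil marker, had no row. Positions are from GENCODE M21, whose gene identifiers matched those in the table for all 10 genes. Promoters are from RefSeq. The alternatives were other pseudocounts (0.1, 5), median-ratio scaling, quantile normalization, a filter at 5 TPM, no filter, only the compared groups, array weights, a replicate block, and leaving out each library.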

Additional observations from a re-analysis of the deposited data

Results flagged for a closer look

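For 5 of the 10 genes the difference between dormant and growing libraries was not the same in KO and WT hosts, by limma's test of the difference itself over all 13002 genes, which called 10.1% of them. The interaction was -7.39 for Mmp10 (adjusted p = 0.000399) and -6.19 for Mmp3 (0.000977). Dormant cells had less of both than growing cells in KO hosts and more in WT hosts. It was -3.67 for Mmp9 (0.0336), 3.76 for Mmp2 (0.0225) and 4.77 for Timp3 (0.0215). Over 20 alternative fits the calls of Mmp10 and Mmp3 held, while that of Mmp9 was lost in 10, that of Mmp2 in 6 and that of Timp3 in 4. All 3 dormant KO libraries also carry the highest sums of alveolar type 2, fibroblast, endothelial and mesothelial markers, whose part in these differences was not tested, and the hosts differ in library batch.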

How the results depend on the processing

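Over 790 alternative values of the 10 genes, 713 kept their direction and their side of the threshold, 41 lost a call, 5 gained one and 31 changed sign. The calls of Mmp3 and Mmp10 in dormant KO against dormant WT, against growing KO and in the interaction held in every alternative. A fit of only the compared groups gave 3 called members (5 in the main fit of all groups) and 1680 called genes (2898) for dormant KO against dormant WT, and 1 and 308 (0 and 127) for growing KO against growing WT. It gave 2 pathway genes (4) for dormant WT against growing WT. Array weights gave 3 members and 1418 genes for dormant KO against dormant WT, 516 genes for growing KO against growing WT, 0 members, 1 pathway gene and 310 genes (1, 4 and 977) for dormant WT against growing WT, and 3586 genes (2313) for dormant KO against growing KO. Without the filter, 0 members and 637 genes were called for dormant WT against growing WT and 3 members for the interaction. A pseudocount of 0.1 gave 2 members for the interaction and 1 pathway gene (2) for growing KO against growing WT.

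Leaving out 1 library gave 4 to 5 called members for dormant KO against dormant WT, 0 for growing KO against growing WT, 0 to 3 for dormant WT against growing WT, 5 to 6 for dormant KO against growing KO and 2 to 5 for the interaction. The called pathway genes were 18 to 25, 2, 1 to 7, 15 to 18 and 11 to 16 in the same order, and all called genes 2487 to 3639, 73 to 89, 452 to 1930, 1757 to 2097 and 870 to 1950. The 1930 came without dormant WT replicate 1 and the 870 without growing WT replicate 3. For dormant WT against growing WT, 0 members, at most 2 pathway genes and 452 to 494 genes were called without any 1 growing WT library, and 3 members and 7 pathway genes without dormant WT replicate 3. For growing KO against growing WT, 73 to 81 genes were called without any 1 of the growing WT libraries or growing KO replicate 1 or 2. The interaction had 3 members without growing WT replicate 2 or 3 or growing KO replicate 1, and 2 without growing KO replicate 3. Over these fits the adjusted p of the interaction ran to 0.0825 for Mmp9, 0.0614 for Mmp2 and 0.0616 for Timp3.

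Signs changed only for differences called in neither fit. For Timp1 in dormant KO against dormant WT the value was 0.46 under median-ratio scaling and 0.039 under quantile normalization, and in the interaction 0.43 and 0.020. With a pseudocount of 0.1, Mmp2 in growing KO against growing WT was 0.65. Under quantile normalization, dormant WT against growing WT gave 0.10 for Mmp2, 0.13 for Mmp13 and 0.49 for Mmp19, and the interaction of Mmp13 was -0.33. With libraries left out, dormant KO against dormant WT ran from -1.35 to 0.32 for Mmp13, -1.07 to 0.58 for Mmp19 and -0.29 to 0.16 for Timp1. Growing KO against growing WT ran from -0.48 to 0.66 for Mmp2, -0.17 to 0.42 for Mmp3 and -0.032 to 0.082 for Timp1. Dormant WT against growing WT ran from -1.005 to 0.0095 for Mmp2, -1.12 to 0.13 for Mmp14, -1.25 to 0.40 for Mmp19 and -0.10 to 0.35 for Timp1. Dormant KO against growing KO ran from -0.017 to 0.079 for Timp1, and the interaction from -0.14 to 1.53 for Mmp13 and -0.32 to 0.13 for Timp1. The cause of these shifts was not tested.

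Deviations of same-numbered libraries had r from -0.015 to 0.021 over 18 pairs, and those of 36 other pairs from -0.029 to 0.033. Most of the 18 pairs cross hosts. Whether same-numbered dormant and growing libraries of a host came from the same mice is not given by the labels, and a small r cannot exclude it. With a replicate block the called members were again 5, 0, 1, 6 and 5, and all called genes 2722, 86, 751, 2116 and 1048.

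With 3 libraries a group, unknown depth and low-input libraries, genes near 0 TPM such as Mmp13 and Mmp19 were scattered within groups, and their wide intervals leave differences undecided.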
